A study of Mus musculus with 20 samples.

Results

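The heat shock proteins described here are 10 genes of the mouse heart, taken by name as rows of the deposited table of counts: 4 small heat shock proteins (Hspb1, Hspb6, Hspb7 and Cryab), the inducible Hsp70 pair (Hspa1a and Hspa1b), and 4 genes of the Hsp70 and Hsp90 folding machinery (Hspa8, Hsph1, Dnajb1 and Hsp90aa1). All 10 were present among 34291 rows and all 10 passed the expression filter, which 13940 rows passed. Poly(A) RNA came from whole frozen hearts of C57BL/6 mice, 10 fed a diet with 14 ppm rapamycin, an inhibitor of the kinase mTOR, and 10 fed a control diet. Both diets were started in mice aged 24 months and given for 3 months, and hearts were taken at 27 months. The comparison asks how rapamycin late in life alters RNA levels in the old heart. Whole hearts hold many cell types, so a smaller number of cells of a type and less RNA per cell cannot be told apart.

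Heat shock proteins are chaperones that bind unfolded or aggregating proteins. Small heat shock proteins share an alpha-crystallin domain, hold misfolded clients without using ATP, and are abundant in striated muscle, where they guard filaments and the contractile apparatus. Hsp70 chaperones then refold clients with the help of J-domain proteins such as Dnajb1, which stimulate their ATPase, and of nucleotide exchange factors such as Hsph1, also called Hsp110. Hsp90 acts late in folding, on kinases and receptors among others. The transcription factor HSF1 induces several of these genes under proteotoxic stress by binding heat shock elements, arrays of inverted GAA units.

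Of the 10 genes 7 had promoter sequences in the RefSeq table (GRCm38.p6), in 10 windows of 300 bases running from 250 before to 50 after a start site. The genes with no entry were Cryab, Hspa8 and Hsp90aa1. The windows were searched for 2 facing units, GAANNTTC or TTCNNGAA, each of which reads the same on both strands. At least 1 such pair stood in a window of 5 of the 7 genes, against 15.1% of 32851 promoter windows of all genes. The first is a count of genes, some with more than 1 window, and the second a share of windows. They are therefore not directly comparable, and no share per gene was computed. No pair was found in these windows of Hspb7 and Dnajb1. The 150 bases before the start are printed for 4 genes that hold a pair there, and a short stretch after the start for Hsph1. Capitals mark the paired units, and positions count back from the start site.
Hspa1a, chr17:34972157-34972306, minus strand: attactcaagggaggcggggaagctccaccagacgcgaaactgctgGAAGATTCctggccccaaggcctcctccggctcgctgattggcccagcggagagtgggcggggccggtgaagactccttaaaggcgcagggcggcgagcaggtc
Hspa1b, chr17:34959239-34959388, minus strand: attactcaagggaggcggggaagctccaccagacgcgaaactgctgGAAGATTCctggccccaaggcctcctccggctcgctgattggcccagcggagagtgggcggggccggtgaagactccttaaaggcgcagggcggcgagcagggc
Hspb1, chr5:135887769-135887918, plus strand: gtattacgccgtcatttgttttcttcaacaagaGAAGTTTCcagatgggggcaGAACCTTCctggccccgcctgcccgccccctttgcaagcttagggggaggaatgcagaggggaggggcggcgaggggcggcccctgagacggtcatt
Hspb6, chr7:30553151-30553300, plus strand: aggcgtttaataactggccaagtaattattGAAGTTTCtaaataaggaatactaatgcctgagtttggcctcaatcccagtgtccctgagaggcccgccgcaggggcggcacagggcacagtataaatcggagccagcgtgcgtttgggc
Hsph1, chr5:149636283-149636305, minus strand: gcagaTTCTGGAAAGTTCtcctc

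The Hspa1a and Hspa1b stretches were equal at 149 of 150 positions, with the same pair at position -104 in both. Hspb1 held 2 pairs, at -117 and -97, and the second of the 2 Hspb6 windows held 1, at -120. Each of the 2 overlapping Hsph1 windows held 1 pair before its start, at -33 or -54 by the start site used, and 2 overlapping pairs after it, which are the ones printed. Hsph1 alone among the 7 genes held 3 alternating units (GAANNTTCNNGAA or TTCNNGAANNTTC), which 0.603% of all windows hold. A match describes letters in these windows and is no evidence that a factor binds there.

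The near-identity of Hspa1a and Hspa1b also limits their counts, because the authors kept reads that map to 1 site. Of the 50-base windows of the Hspa1a coding sequence (GENCODE M21), 82.4% occur letter for letter in that of Hspa1b. Over whole transcripts, 33.7% of the windows of Hspa1a and 37.7% of those of Hspa1b occurred in no other annotated gene. The share was 25.2% for Hspa8 and 41.5% for Hsp90aa1, which have processed pseudogenes, and 48.4% for Hspb1, whose pseudogene Hsp25-ps1 held 0 to 2 counts per library. It was 81.0% for Cryab, which shares annotated transcript with its neighbour Hspb2, and at least 98.6% for Hspb6, Hspb7, Hsph1 and Dnajb1. Reads that match more than 1 site equally would be left out under that rule. The levels of Hspa1a, Hspa1b, Hspa8, Hsp90aa1 and Hspb1 are therefore uncertain and may be too low. How reads in the stretch that Cryab shares with Hspb2 were counted is not stated in the sources used here.

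Libraries held 8525162 to 12458309 counts with rapamycin and 7039514 to 10594335 in controls. Libraries are named by diet and the number in their label. One of them, control 19, stood apart. The summed CPM of 9 lung epithelial marker genes (here counts scaled to the library total, without the TMM factor used for single genes) was 0.920 to 166.8 with rapamycin and 0.984 to 469.2 in the other controls, but 29550 in control 19. The summed CPM of 14 cardiomyocyte markers was 60810 to 76150 with rapamycin and 57330 to 74430 in the other controls, but 25740 in control 19. Results are therefore given with and without control 19.

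None of the 10 genes passed the threshold between rapamycin and control hearts (edgeR quasi-likelihood test, adjusted p under 0.05 over all genes), against 3.36% of the 13940 genes tested (0.689% higher and 2.68% lower with rapamycin). Without control 19 the count was also 0, against 3.38% of genes tested (1.05% higher and 2.33% lower). At an unadjusted p under 0.05 there were 2 of the 10, Hsp90aa1 and Hsph1, both lower with rapamycin, against 21.7% of all genes. Without control 19 the same 2 genes had an unadjusted p under 0.05, against 19.4% of all genes. DESeq2 called none of the 10, against 6.95% of all genes, with 2 at an unadjusted p under 0.05, against 21.9% of all genes. Limma voom also called none, against 7.72% of all genes, with 4 at an unadjusted p under 0.05, against 24.9%. The log2 fold changes of rapamycin over control ran from -0.26 to 0.35 with a median of 0.10, and 6 of 10 were above 0. The median of all genes tested was -0.01.

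**Figure D1:**
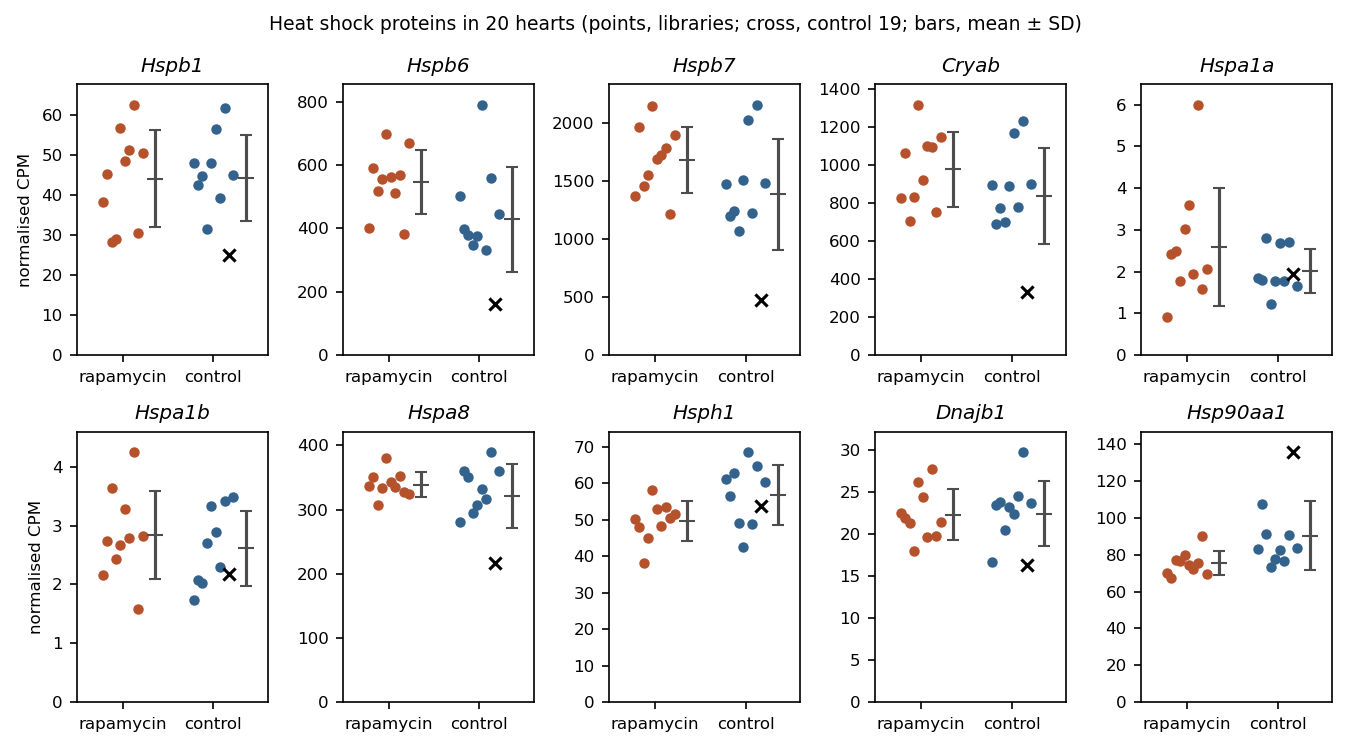
Normalised CPM (vertical axis, from 0) of the 10 genes in each of 10 rapamycin and 10 control libraries, with the mean and SD of each group beside the points and control 19 as a cross. Values of the rapamycin and control libraries overlap for each gene, and control 19 has the lowest value of its group for Hspb1, Hspb6, Hspb7, Cryab, Hspa8 and Dnajb1 and the highest for Hsp90aa1.

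Levels per kilobase of exon (normalised CPM divided by the GENCODE M21 exonic length) differed widely among the 10 genes. Cryab was the highest, at 756 ± 153 CPM per kb with rapamycin and 647 ± 195 CPM per kb in controls (SD, n = 10 each, as in all means below). Hspb7 followed at 608 ± 103 CPM per kb with rapamycin and 502 ± 173 in controls, and Hspb6 at 400 ± 73.9 with rapamycin and 315 ± 122 in controls. Across libraries, the ranges of Cryab and Hspb7 overlapped in both groups, as did those of Hspb7 and Hspb6. In the rapamycin group the lowest Cryab value (547 CPM per kb) lay above the highest Hspb6 value (512 CPM per kb), while in controls they overlapped. Hspa8 had a lower mean, at 142 ± 8.19 CPM per kb with rapamycin and 134 ± 20.7 in controls, and lay below every Hspb6 value in the rapamycin group but not in controls, where Hspb6 in control 19 was 117 CPM per kb. Hspb1 reached 42.8 ± 11.7 CPM per kb with rapamycin and 42.9 ± 10.5 in controls, so this small heat shock protein lay far below the other 3. Hsp90aa1 (22.3 ± 1.91 with rapamycin, 26.7 ± 5.54 in controls), Hsph1 (11.7 ± 1.28 with rapamycin, 13.5 ± 1.94 in controls) and Dnajb1 (6.97 ± 0.945 with rapamycin, 7.01 ± 1.22 in controls) came next. The inducible pair was lowest, with Hspa1b at 1.01 ± 0.268 CPM per kb with rapamycin and 0.933 ± 0.227 in controls, and Hspa1a at 0.870 ± 0.477 with rapamycin and 0.681 ± 0.178 in controls. The last 2 overlapped in both groups. By their means, the order of the 10 genes was the same in both groups. These levels use the full exonic length and are not corrected for sequence shared with other genes. The share of windows found in no other gene was 25.2% for Hspa8 but at least 98.6% for Hspb6 and Hspb7. The place of Hspa8 and of the other genes with much shared sequence in this order is therefore uncertain.

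Among the small heat shock proteins, 3 of 4 had values above 0 and none passed. Hspb6, also called Hsp20, a target of cyclic nucleotide-dependent kinases in muscle, ranged from 381.7 to 698.4 normalised CPM with rapamycin (median 559.3) and from 159.9 to 790.8 CPM in controls (median 388.2). In 9 of 10 rapamycin hearts it lay above the control median, although the highest of all libraries was control 13. Its log2 fold change was 0.35 ± 0.19 (SE, 95% interval -0.04 to 0.73, adjusted p = 0.284 by edgeR), and 0.25 ± 0.14 without control 19 (adjusted p = 0.354 by edgeR).

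Hspb7, a cardiac small heat shock protein needed in mice for the integrity of thin filaments, was the most counted of the 10 genes. It ranged from 1221 to 2150 CPM with rapamycin (median 1711) and from 474.5 to 2163 CPM in controls (median 1364). Again 9 of 10 rapamycin hearts lay above the control median, and the lowest value was in control 19, the next lowest control being control 10 at 1075 CPM. The log2 fold change was 0.28 ± 0.18 (95% interval -0.10 to 0.65, adjusted p = 0.385 by edgeR), and 0.18 ± 0.13 without control 19 (adjusted p = 0.470 by edgeR).

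Cryab encodes alpha-B-crystallin, which binds desmin and titin in heart muscle. Its values ran from 705.6 to 1316 CPM with rapamycin (median 992.4) and from 333.4 to 1227 CPM in controls (median 833.5). Rapamycin 8 had the highest level and control 19 the lowest, and between them the groups were mixed. The log2 fold change was 0.22 ± 0.17 (95% interval -0.12 to 0.57, adjusted p = 0.450 by edgeR), and 0.14 ± 0.12 without control 19 (adjusted p = 0.597 by edgeR). Hspb1, the actin-associated Hsp25 of mice, ranged from 28.27 to 62.62 CPM with rapamycin (median 46.87) and from 24.99 to 61.86 CPM in controls (median 44.89). Its log2 fold change of -0.01 ± 0.16 leaves a 95% interval of -0.34 to 0.33, and was -0.07 without control 19.

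Cardiomyocyte marker levels were set beside those of the small heat shock proteins. In the list of 14 such genes, none at 0 in any library, each had a log2 fold change above 0, against 47.5% of all genes tested. Their median was 0.29 and none passed, against 3.36% of all genes. Without control 19 each was still above 0, against 7191 of 13977 genes tested. The median was then 0.21 and 1 passed as higher with rapamycin, against 1.05% of all genes. Set against the summed CPM of this list in the same library, the low values of control 19 lay inside the range of the other hearts for 3 of the 4 genes. Per 1000 CPM of the list, Hspb7 stood at 18.6 to 26.2 with rapamycin and 17.9 to 29.3 in the other controls, and at 21.6 in control 19. Hspb6 stood at 5.58 to 8.56 with rapamycin and 5.16 to 10.4 in the other controls, and at 7.27 in control 19. Cryab stood at 10.9 to 16.1 with rapamycin and 11.7 to 16.6 in the other controls, and at 15.2 in control 19. Hspb1 was the exception, at 0.381 to 0.790 with rapamycin and 0.525 to 0.838 in the other controls, but 1.14 in control 19. With the level of the list as a covariate the log2 fold changes were 0.0032 for Hspb6, -0.089 for Hspb7, -0.12 for Cryab and -0.27 for Hspb1, and none passed. That fit called 65 of 13940 genes. It kept control 19, which had the smallest sum of the list, and was not run without it. How far these values rest on control 19 was not tested.

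**Figure D2:**
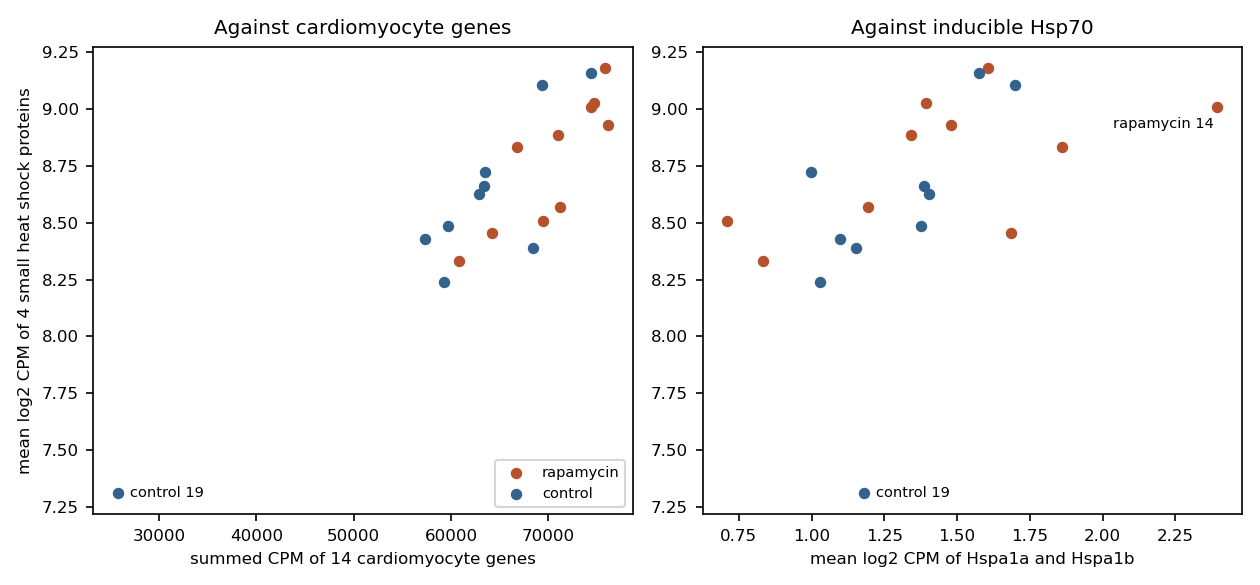
Mean log2 CPM of Hspb1, Hspb6, Hspb7 and Cryab (vertical axis) in each library, against the summed CPM of 14 cardiomyocyte genes (left) and the mean log2 CPM of Hspa1a and Hspa1b (right). Control 19 lies lowest on the vertical axis, at 7.31, and has the smallest cardiomyocyte sum, while its inducible Hsp70 level of 1.18 lies within the range of the other libraries.

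The inducible Hsp70 genes were close to the limit of counting, at 9 to 48 reads of Hspa1a and 14 to 48 of Hspa1b per library. Hspa1a ranged from 0.925 to 6.00 CPM with rapamycin (median 2.25) and from 1.23 to 2.81 CPM in controls (median 1.82). Both extremes of the 20 hearts were rapamycin hearts: rapamycin 14 was the highest and rapamycin 3 the lowest, and 3 rapamycin libraries lay above every control. The coefficient of variation was 54.8% with rapamycin and 26.1% in controls, a difference that was not tested. The log2 fold change of 0.34 ± 0.25 (95% interval -0.18 to 0.85, adjusted p = 0.440 by edgeR) was 0.13 without rapamycin 14 and 0.33 without control 19.

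Hspa1b ranged from 1.58 to 4.25 CPM with rapamycin (median 2.77) and from 1.74 to 3.48 CPM in controls (median 2.50). Rapamycin 14 was again the highest and rapamycin 15 the lowest. Its log2 fold change was 0.12 ± 0.17 (95% interval -0.23 to 0.46, adjusted p = 0.721 by edgeR), or 0.05 without rapamycin 14, 0.19 without rapamycin 15 and 0.099 without control 19. With the counts of both genes summed the log2 fold change was 0.22, which did not pass either (adjusted p = 0.490 by edgeR). Rapamycin 14 also had the highest sum of 16 immediate early genes (1082 CPM), which ranged from 404.8 to 1082 CPM with rapamycin and from 379.3 to 847.6 CPM in controls. Rapamycin 15, the lowest for Hspa1b, had the smallest sum of the rapamycin hearts. The order did not hold throughout. Rapamycin 3, the lowest for Hspa1a, had 764.5 CPM, and rapamycin 9, next to rapamycin 14 for Hspa1a at 3.59 CPM, had 659.4 CPM. Of the immediate early list, with no gene at 0 in any library, 15 of 16 had a log2 fold change above 0. In this list 4 passed as higher with rapamycin and none as lower, against 0.689% and 2.68% of all genes tested. Without control 19 the counts were 8 and none, against 1.05% and 2.33%. The part of the list in the Hsp70 levels was not tested.

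In the folding machinery, Hsp90aa1 and Hsph1 had the smallest p-values of the 10 genes. Hsp90aa1, the stress-inducible cytosolic Hsp90, ranged from 67.41 to 90.19 CPM with rapamycin (median 74.88) and from 73.39 to 135.6 CPM in controls (median 83.11). A single rapamycin heart, rapamycin 15, lay above the control median, and 4 lay below every control. The log2 fold change was -0.26 ± 0.09 (95% interval -0.45 to -0.07, unadjusted p = 0.00985, adjusted p = 0.108 by edgeR). Without control 19, the highest library, it was -0.17 ± 0.07 (adjusted p = 0.152 by edgeR). With the cardiomyocyte level as a covariate, and control 19 kept, it was -0.086.

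The sum of macrophage markers was high in the libraries with the most Hsp90aa1, but the order did not hold below them. Control 19 and control 2, at 135.6 and 107.5 CPM of Hsp90aa1, had the largest sums of 12 macrophage markers, 4138 and 1481 CPM. Rapamycin 15, at 90.19 CPM of Hsp90aa1, had a sum of 546.5 CPM, while control 17, at 90.77 CPM, had 760.2 CPM, the smallest of the controls. Controls 13 and 11, next by macrophage sum (1186 and 1183 CPM), had 82.47 and 77.39 CPM of Hsp90aa1. The macrophage list summed to 481.6 to 1062 CPM with rapamycin and 760.2 to 4138 CPM in controls. None of its genes was at 0 in any library. In this list 9 of 12 passed as lower with rapamycin, against 2.68% of all genes tested. Without control 19, 10 passed as lower, against 2.33%. In control 19 the gene Lyz2 alone reached 2972 normalised CPM, against at most 403 with rapamycin. Its log2 fold change was -1.47, or -0.71 without control 19. That library also held 29550 CPM of lung epithelial markers and 3143 CPM of neutrophil markers. How much of its macrophage sum came from macrophages was not tested. The part of the macrophage list in the level of Hsp90aa1 was not tested. The constitutive paralog Hsp90ab1 had a value in the other direction that also did not pass (0.17 ± 0.11, adjusted p = 0.378 by edgeR), at 976 ± 147 CPM with rapamycin and 870 ± 155 CPM in controls.

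Hsph1, the Hsp110 exchange factor, ranged from 38.1 to 58.11 CPM with rapamycin (median 50.36) and from 42.6 to 68.57 CPM in controls (median 58.39). No rapamycin heart lay above the control median, and 1, rapamycin 5, lay below every control. The log2 fold change was -0.20 ± 0.08 (95% interval -0.37 to -0.03, unadjusted p = 0.0257, adjusted p = 0.167 by edgeR) and -0.20 without control 19, whose level of 53.74 CPM was inside the range of both groups. Without any scaling factor for composition, Hsph1 and Hsp90aa1 both passed (-0.32 and -0.40, adjusted p = 0.0191 and 0.0374 by edgeR), but that setting moved the median of all genes to -0.13. It called 1332 of 13940 genes, 1284 of them lower with rapamycin, against 469 and 373 in the main fit.

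Hspa8, the constitutive Hsc70, ranged from 307.6 to 380.6 CPM with rapamycin (median 336.3) and from 216.8 to 390.0 CPM in controls (median 324.3). The rapamycin hearts were close together, with a coefficient of variation of 5.78%, against 15.5% in controls and 10.7% in controls without number 19; the difference was not tested. Its log2 fold change of 0.08 ± 0.08 (95% interval -0.09 to 0.24, adjusted p = 0.587 by edgeR) was 0.035 without control 19. Dnajb1, an inducible J-domain partner of Hsp70, ranged from 18.07 to 27.75 CPM with rapamycin (median 21.69) and from 16.38 to 29.82 CPM in controls (median 23.35). Its log2 fold change was -0.01 ± 0.10 (95% interval -0.21 to 0.19), and -0.047 without control 19.

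**Figure D3:**
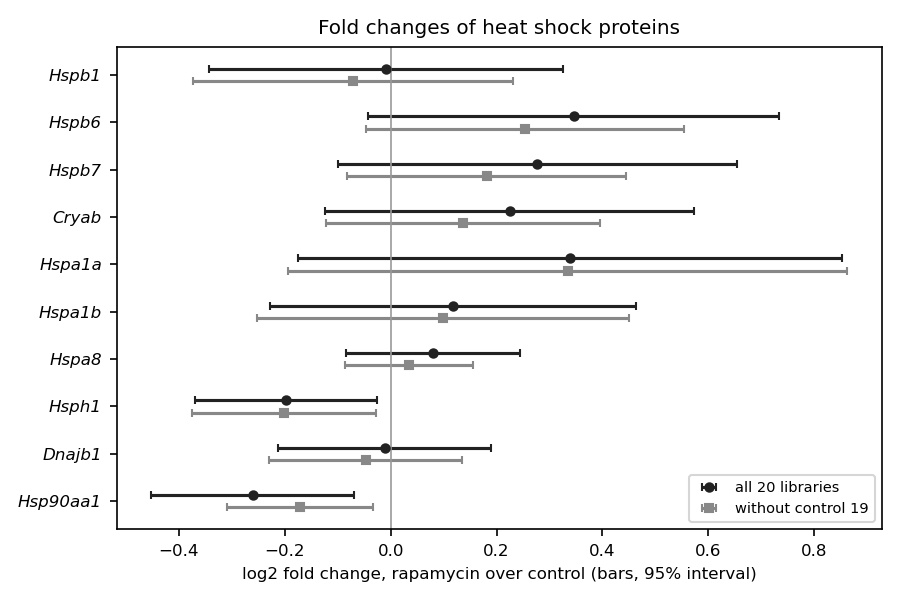
Log2 fold change of rapamycin over control (horizontal axis) with its 95% interval for each gene, over all 20 libraries (circles) and without control 19 (squares). The intervals of Hsph1 (-0.37 to -0.03) and Hsp90aa1 (-0.45 to -0.07) lie below 0 before adjustment for the genes tested, and the others include 0.

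Small heat shock proteins were set against the inducible Hsp70 pair in each heart, as the mean log2 CPM of the 4 genes minus that of the pair. The difference averaged 7.32 ± 0.398 with rapamycin (range 6.61 to 7.80) and 7.22 ± 0.425 in controls (range 6.13 to 7.73), so the group means lay 0.10 apart. Without control 19 the controls averaged 7.34 ± 0.197 and the means lay -0.02 apart, which turns the direction. Without the 4 libraries with lung transcripts (control 1, control 19, control 20 and rapamycin 15) they lay 0.0042 apart. The 4 small genes averaged 8.77 ± 0.285 with rapamycin and 8.51 ± 0.515 in controls, and the pair 1.45 ± 0.489 with rapamycin and 1.29 ± 0.236 in controls. With Dnajb1, Hsph1 and Hsp90aa1 added to the pair the group means of the difference lay 0.28 apart. That value includes control 19, which had the lowest mean of the 4 small genes (7.31) and the highest Hsp90aa1 (135.6 CPM). It was not computed without control 19. The groups overlapped throughout, and no test was made on these sums over chosen genes.

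Across hearts the inducible gene Hspa1b was compared with each of the other 9 genes, after the mean of each diet group was subtracted. None of the 9 relations passed after Benjamini-Hochberg adjustment over the 9, by Pearson or Spearman correlation (2-sided permutation tests, 100000 resamples). The largest r was that of Dnajb1 (r = 0.56, permutation p = 0.0115, adjusted 0.104; rho = 0.44, p = 0.0604, adjusted 0.136), with r of 0.55 within the rapamycin group and 0.585 within controls, and 0.48 without rapamycin 15 and rapamycin 14. The largest rho was that of Hspb7 (rho = 0.48, permutation p = 0.0375, adjusted 0.136; r = 0.42, p = 0.0488, adjusted 0.147), with r of 0.51 within the rapamycin group and 0.45 within controls, and 0.38 without rapamycin 15 and rapamycin 14. Cryab (rho = 0.46) and Hspb1 (rho = 0.44) followed. Hspa1a had r = 0.52 (permutation p = 0.0271, adjusted 0.122; rho = 0.36, p = 0.123, adjusted 0.184). Within groups it was 0.78 with rapamycin and -0.00135 in controls, and over both it was 0.30 without rapamycin 15 and rapamycin 14. At so few counts per heart, counting error alone limits how closely the pair can follow each other.

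The genes outside the 10 whose pattern was most like the mean of Hspa1a and Hspa1b were Akirin2, Foxj3, Otud1, Ier5, Ctgf, Plekho1, Anp32e, Man2b2, Phlda1 and Csnk1a1. Their Pearson r over the 20 libraries, with group means subtracted, lay between 0.71 and 0.73. Of these, Akirin2, Foxj3, Otud1, Ier5 and Phlda1 stayed among the first 10 without control 19. Otud1, a deubiquitinase, also rose with rapamycin, at 25.9 CPM against 16.5 CPM in controls (log2 0.65, adjusted p = 0.0274 by edgeR). The same measure was 0.60 for Dnajb1 and 0.57 for Hspb1, but 0.215 for Hsph1 and -0.07 for Hsp90aa1. These values are descriptions over sparse counts and share the libraries they were chosen in.

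The pattern of the small heat shock proteins was matched much more closely. The first 10 genes were Pgam2, Actn2, Pabpc4, Gpc1, C1qbp, Trim72, Slc6a8, Coq5, Des and Trim54, with r from 0.97 to 0.98, and 0.93 to 0.96 without control 19. Among them are muscle genes: Actn2 encodes the sarcomeric alpha-actinin, Des the intermediate filament desmin and Pgam2 the muscle phosphoglycerate mutase. None of the 10 passed between the diets. Desmin had 1269 CPM with rapamycin and 1130 CPM in controls, and Actn2 had 1313 CPM with rapamycin and 1014 CPM in controls. Within the 10 heat shock genes, the same measure was 0.75 for Hspa8, or 0.46 without control 19, and -0.58 for Hsp90aa1, or -0.10 without control 19.

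Other chaperones were read from 7 fixed lists with 79 genes, of which 78 were in the table and 75 were tested. None passed, while 13 had an unadjusted p under 0.05 (17.3%, against 21.7% of all genes tested). Values above 0 were found for 55 of 75 (73.3%, median 0.07), against 47.5% of all genes (median -0.01). Without control 19 they were found for 54 of 75 (median 0.06), against 7191 of 13977 genes tested (median 0.005). With no scaling factor, which moves the median of all genes to -0.13, 24 of 75 lay above 0 (32.0%, against 19.1% of all genes). With the cardiomyocyte covariate, and control 19 kept, 35 of 75 did (46.7%, against 48.0% of all genes). DESeq2 called 3 of the 75 (4%, against 6.95% of all genes) and limma voom 5 (6.67%, against 7.72% of all genes). The smallest p belonged to Dnajb4, a J-domain partner of Hsp70, at 160 ± 12.5 CPM with rapamycin and 138 ± 15.6 CPM in controls (log2 0.22 ± 0.07, adjusted p = 0.0624 by edgeR). It is the only one of the 79 that appears in the authors' deposited table of 700 genes, which holds none of the 10 heat shock genes. DESeq2 and limma voom both called Dnajb4 and the chaperonin subunit Cct7, higher with rapamycin (adjusted p = 0.0168 and 0.0201 by DESeq2, 0.0418 and 0.0439 by limma voom).

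Of the 6 genes listed as other small heat shock proteins 4 were tested, and Hspb9 and Cryaa were too low. Whether each listed gene, Hspb11 among them, encodes the alpha-crystallin domain was not checked. Hspb2, the divergent neighbour of Cryab, stood at 48.95 ± 5.61 CPM with rapamycin and 40.7 ± 7.61 CPM in controls (log2 0.27 ± 0.10, adjusted p = 0.131 by edgeR), while Hspb8, which works with Bag3 in chaperone-assisted autophagy, stood at 0.04 ± 0.12 and Hspb11 at -0.13. Without control 19 Hspb8 turned to -0.03 and Hspb11 was -0.02. In the Hsp70 and Hsp110 list the endothelial Hspa12b (0.17 ± 0.07) and Hspa5, the BiP of the endoplasmic reticulum (-0.16 ± 0.08), had the smallest p-values. Hsp90b1, the Hsp90 of the same compartment, stood at -0.20 ± 0.08, and Fkbp5, a glucocorticoid-induced Hsp90 cochaperone, at -0.71 ± 0.26 with 26.9 ± 3.89 CPM with rapamycin and 43.9 ± 27.5 CPM in controls. The value of Fkbp5 was -0.46 without control 17 (adjusted p = 0.197 by edgeR) and -0.28 by limma voom (adjusted p = 0.475). Next to Dnajb4 in its list came Dnajb2 (0.21 ± 0.09).

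The exchange factors Sil1 (0.13 ± 0.05) and Bag1 (0.16 ± 0.08), the chaperonin subunit Cct7 (0.14 ± 0.05) and the mitochondrial disaggregase Clpb (0.26 ± 0.12) led their lists by p. Among regulators all 7 tested genes had values above 0, although Hsbp1 and Hsf2 lay below 0 with no scaling factor. Hsbp1, which binds HSF1, stood at 0.12 ± 0.04 (adjusted p = 0.117 by edgeR) and Hsf2 at 0.12 ± 0.06. Hsf1 itself had 28.4 ± 2.65 CPM with rapamycin and 26.9 ± 2.76 CPM in controls (0.08 ± 0.07, adjusted p = 0.523 by edgeR), or 0.04 without control 19.

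**Figure D4:**
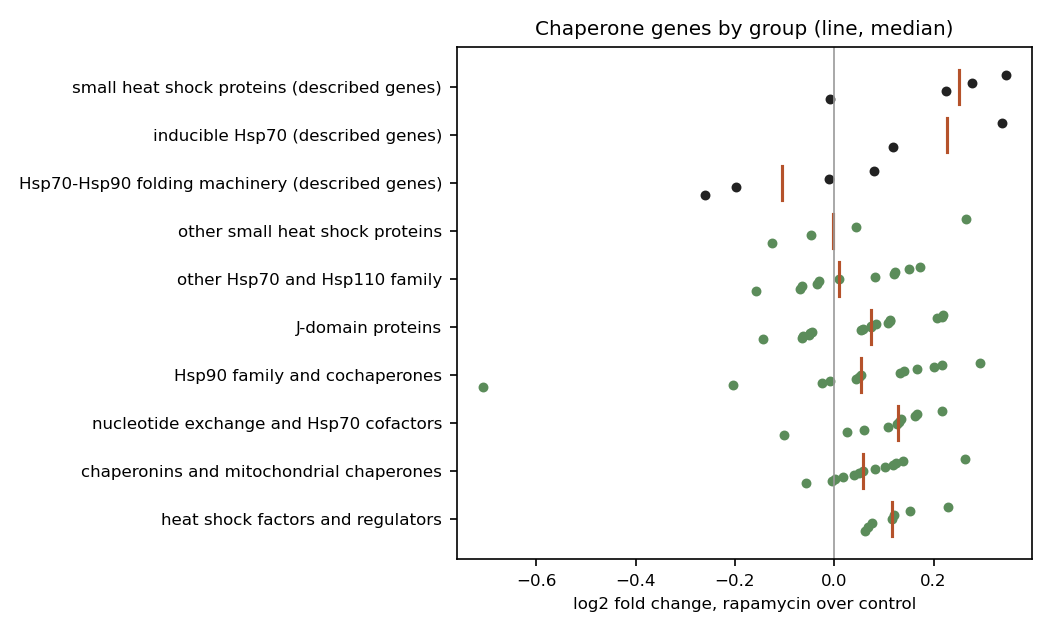
Log2 fold change of rapamycin over control (horizontal axis) of each tested gene in the 3 groups described here (black) and in 7 lists of other chaperones (green), with the median of each as a line. Medians run from -0.105 for the folding machinery to 0.25 for the small heat shock proteins, and no point passed the threshold.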

How the data were processed

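Poly(A) RNA of 20 hearts was sequenced as paired reads of 50 bases. Per the labels' design text, only reads mapping to a unique site of MGSCv37 were kept. No aligner, counter or strand setting is given in the sources used here. The submitters' processing notes name edgeR, with no version or role. The authors deposited raw counts per gene symbol for 20 libraries, and a table of 700 genes in CPM that equal those counts scaled to the library total. The second table was used only to see which genes it lists. The rapamycin 4 column is spelled with 1 letter fewer than its title.

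Counts were filtered by expression and scaled by TMM. The test was edgeR 4.0.16 (R 4.3.3), quasi-likelihood, with no covariates, and Benjamini-Hochberg adjustment over 13940 genes at 0.05. The SE is the fold change over the root of F. Log2 CPM use a prior count of 2. DESeq2 1.42.0 and limma 3.58.1 were alternatives, and the fits were tested on simulated data. The design text counts mice, so libraries are taken as animals, and no batch or sex is labelled.

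The 10 genes, the lists and the tests were chosen with earlier results of these data known. Named genes are the 10, the called genes or else the 2 smallest p-values of each chaperone list, and the 10 genes most like each of 2 patterns. Hsp90ab1, Hsf1 and Hspb8 were named after their values were seen. Cct6a, split over 2 loci, was left out.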

Additional observations from a re-analysis of the deposited data

Results flagged for a closer look

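In 10 genes and 2 groups, 20 sets of 10 libraries were searched for a library standing far from the rest, which chance alone gives in about 1 set of 20. Control 19 was flagged for 2 genes, as the lowest control: Hspb7, at 8.89 log2 CPM with the next control at 10.1, and Cryab, at 8.38 log2 CPM with the next control at 9.43. The same library held lung transcripts and a low cardiomyocyte sum, as given above.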

How the results depend on the processing

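No paired analysis was possible because the groups share no library number. Of the 10 genes, 0 were called under each alternative except no scaling factor, which called 2, and 0 to 0 without 1 library. Of the other chaperones, 0 were called, but 3 with DESeq2, 5 with limma voom, 4 with no scaling factor and 0 to 1 without 1 library (Cct7 without rapamycin 5, Dnajb4 without control 2 or control 17). Of all genes 469 were called (96 higher, 373 lower with rapamycin), but 969 with DESeq2 (322 higher, 647 lower), 1076 with limma voom (418 higher, 658 lower), 1332 with no scaling factor (48 higher, 1284 lower), 280 without the 4 libraries with lung transcripts, 65 with the cardiomyocyte level as a covariate, and 165 (without rapamycin 18) to 791 (without rapamycin 5) without 1 library. The covariate, the values per cardiomyocyte level and the likeness without control 19 were added after seeing the data. The cause of these shifts was not tested.

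Directions turned for some values, among them Hspb8 without control 19, given above. Hspb1 was 0.013 with limma voom, 0.0062 with no expression filter, and -0.072 to 0.057 without 1 library. Dnajb1 was 0.0057 with no expression filter and -0.051 to 0.044 without 1 library. With no scaling factor Hspa8 was -0.038, Hsbp1 -0.00066 and Hsf2 -0.011. With the covariate Hspb7 was -0.089, Cryab -0.12, Hspa8 -0.058 and Hspb11 0.065. The small minus inducible Hsp70 difference was -0.021 to 0.18 without 1 library. With 9 to 48 reads of Hspa1a per library, counting error limits what can be seen of the inducible pair.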
